A study of Drosophila melanogaster with 12 samples.

Results

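DRIP-seq peaks that were called in every RNH-untreated library of *Drosophila* S2 cells were collected from the chromosome arms. The 4 RNH-untreated peak lists were merged wherever peaks shared at least 1 bp. A merged region was a member if it lay on the arms 2L, 2R, 3L, 3R or X, was under 3000 bp wide, and was overlapped by a peak of each of the 4 lists. This selected 521 of 12155 merged regions, or 7.08% of the 7354 arm regions under 3000 bp. Another 181 arm regions were called in all 4 lists but were 3000 bp or wider, and 860 regions called in all 4 lists lay off the arms. Since the members were chosen by the calls of the RNH-untreated lists, their scores and calls in those lists are given as a description, with no test. The calls of the RNH-treated lists took no part in the choice. In each replicate of a condition they were made against the same input as those of the RNH-untreated list, so they are not fully independent of it.

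R-loops are structures in which a nascent RNA pairs with the template DNA strand and displaces the other strand. They form during transcription, at active genes and at repeated elements. The S9.6 antibody binds RNA:DNA hybrids, and RNase H (RNH) degrades the RNA of a hybrid, so signal that RNH removes is attributed to hybrids and signal that stays is not. Linker histone dH1, the single somatic H1 of *Drosophila*, binds nucleosomes and linker DNA and contributes to chromatin compaction and to the silencing of heterochromatin.

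The cells were S2 cells, an established embryonic line. One condition was untreated, and in the other cells were depleted of dH1 by RNAi, with 100 µg of dsRNA added at days 1, 4 and 7 of an 8 day incubation. Genomic DNA was treated with RNase A in all libraries, sheared to 500 to 1000 bp fragments, left without RNH or digested with 6 U of RNH, and immunoprecipitated with 4 µg of S9.6. There were 2 biological replicates in each condition, each with an RNH-untreated library, an RNH-treated library and an input. Library depth is unknown, as no read numbers accompany the peaks, and the dH1 transcript was not analysed here.

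The RNH-untreated list of dH1-depleted replicate 1 stood apart from the other 3. It held 9368 peaks with a median width of 228 bp. The list of untreated replicate 1 held 4016 peaks with a median width of 1187 bp, that of untreated replicate 2 held 3807 with a median of 1162 bp, and that of dH1-depleted replicate 2 held 5526 with a median of 1233 bp. The number of members, the differences in RNH-treated peaks, the order of the conditions and the share on X are therefore also given without it. Positions along the arms, spacing, distances to wider regions and groups of members by width, order or RNH-treated peak are given with it only.

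Membership was decided mostly by that list. Of the 931 arm regions under 3000 bp that were called in exactly 3 lists, 609 (65.4%) lacked only a peak of dH1-depleted replicate 1. A further 167 lacked only dH1-depleted replicate 2, 91 lacked only untreated replicate 2 and 64 lacked only untreated replicate 1. Of the 609 regions, 33 had a peak of dH1-depleted replicate 1 within 500 bp. When dH1-depleted replicate 1 was left out, 1130 regions were called in the other 3 lists. When any other RNH-untreated list was left out, the number was between 599 and 714. The calls themselves were sparse beyond the members, since 4792 of the arm regions under 3000 bp were called in 1 list only and 3159 of these in dH1-depleted replicate 1 only.

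The members were under 3000 bp wide by the rule. Their widths ran from 923 to 2980 bp with a median of 1673 bp, and the middle range, from the lower to the upper quartile, was 1278 to 2099 bp. Under the same limit, regions called in 3 lists had a median of 1465 bp and all other arm regions one of 969 bp. In 424 members (81.4%) every list had exactly 1 peak. In untreated replicate 1 the median width of a peak inside a member was 1411 bp, in untreated replicate 2 it was 1373 bp and in dH1-depleted replicate 2 it was 1444 bp. In dH1-depleted replicate 1 it was 250 bp, and 91 members held several peaks of that list, up to 4. Peaks of the other 3 lists thus filled most of a member, with median covers of 95.4%, 92.8% and 95.8% of its width, whereas those of dH1-depleted replicate 1 covered 18.0%.

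Within a member, the peaks of the 3 lists of wide peaks lay almost on top of each other. The centres of the peaks of highest score in the untreated replicates were a median of 33 bp apart. The centre in dH1-depleted replicate 2 was a median of 55 bp from that in untreated replicate 1 and 53 bp from that in untreated replicate 2. The narrow peaks of dH1-depleted replicate 1 sat farther off, with medians of 176 to 196 bp from the other lists, but in 507 members (97.3%) the one of highest score lay wholly inside the peak of highest score of untreated replicate 1. At the centre of that peak, 99.6% of members were covered by a peak of untreated replicate 2, 99.2% by one of dH1-depleted replicate 2 and 43.2% by one of dH1-depleted replicate 1.

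**Figure D1:**
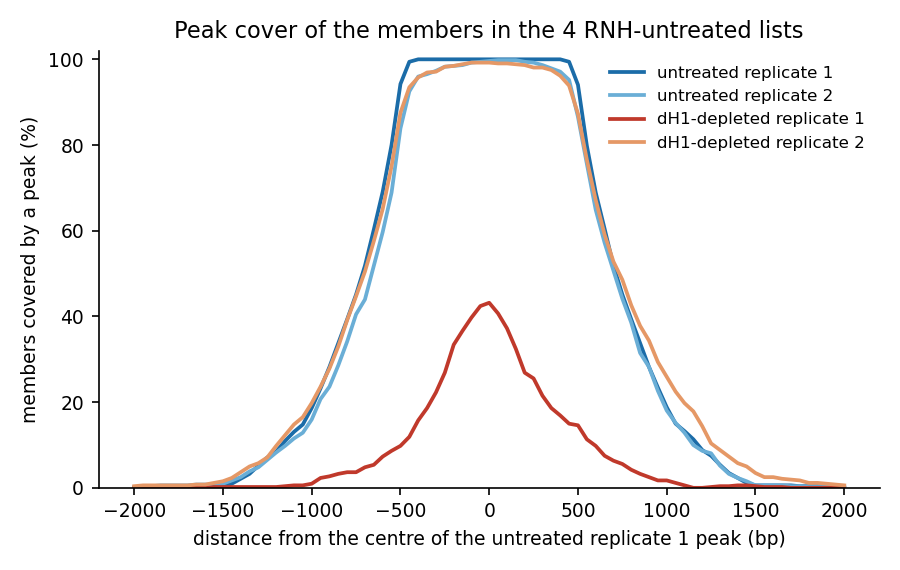
Share of the 521 members covered by a peak of each RNH-untreated list (vertical axis, percent), against the distance in bp from the centre of the untreated replicate 1 peak of highest score (horizontal axis). The lines of 3 lists run together, and the line of dH1-depleted replicate 1 is highest at the centre, at 43.2%.

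The stretch of DNA covered by all 4 lists was a median of 269 bp and at most 1510 bp, and 497 members (95.4%) had at least 100 bp of it. In 20 members (3.84%) no base was covered by all 4 lists, so these were joined only through peaks that overlapped in turn. Without dH1-depleted replicate 1 the stretch common to the other 3 lists was a median of 1233 bp, and 1 member had none. The longest common stretches were 1510 bp at chr2L:626086-628422, 1353 bp at chr2R:14745426-14747965 and 1184 bp at chr2L:21729256-21731875 (dm3 coordinates, counted from 1, here and below). The shortest above 0 were 29 bp at chr3R:20150808-20153014, 69 bp at chr3R:12509175-12510395 and 87 bp at chr2L:7893564-7895366. No annotation of dm3 was used, so genes are not assigned to the positions.

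The width limit cut through a continuous range. The members closest to it were chr2R:6445272-6448251, at 2980 bp, and chrX:20182787-20185761, at 2975 bp. The first had scores of 408 and 262 in untreated replicates 1 and 2 and of 72.0 and 105 in dH1-depleted replicates 1 and 2. The second had 360, 293, 76.1 and 471 in the same order. Just above the limit lay chr3L:5026363-5029370, at 3008 bp with scores of 117, 88.4, 65.2 and 94.2, and chr3L:4250785-4253803, at 3019 bp with scores of 233, 170, 93.2 and 230. The scores on the 2 sides of the limit overlapped.

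The score of a peak is 10 times the negative log10 of its *p*-value from the peak caller. It grows with depth, so it was ranked within each list as a percentile, with 100 for the highest score. Where a list had several peaks in a region, the highest score was taken. In untreated replicate 1 the scores of the members ran from 50.5 to 1951 with a median of 127, at a median percentile of 65.7. In untreated replicate 2 they ran from 50.2 to 1949 with a median of 116, at a median percentile of 61.0. In dH1-depleted replicate 1 they ran from 50.1 to 1070 with a median of 89.4, at a median percentile of 58.5. In dH1-depleted replicate 2 they ran from 50.6 to 3100 with a median of 147, at a median percentile of 66.4. The members were thus spread over nearly the whole range of each list. Those that scored under 100 numbered 174 (33.4%) and 210 (40.3%) in untreated replicates 1 and 2. In dH1-depleted replicates 1 and 2 they numbered 304 (58.3%) and 163 (31.3%). A score of 100 lay near percentiles 53, 53, 64 and 48 of all peaks of the 4 lists in the same order. Members thus scored under 100 less often than the peaks of each list as a whole.

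In each list the percentile was higher the more lists called a region. Regions called in 3 lists had median percentiles of 49.1, 46.1, 46.9 and 54.6 in untreated replicates 1 and 2 and dH1-depleted replicates 1 and 2. Over all other arm regions under 3000 bp the medians were 33.8, 33.4, 35.2 and 37.7. The 609 regions that lacked only dH1-depleted replicate 1 lay below the members also in the lists that called both, with medians of 56.0, 52.4 and 55.8 in untreated replicates 1 and 2 and dH1-depleted replicate 2. Members held 90 of the 263 peaks that made up the highest 10% of arm scores in untreated replicate 1 (34.2%), and 36.0%, 18.5% and 25.8% in the other lists in the same order, while they held 20.1%, 21.6%, 11.4% and 16.0% of all arm peaks. The 181 wider regions held 107 of these 263 peaks in untreated replicate 1, 100 of 242 in untreated replicate 2, and 168 of 545 and 117 of 329 in dH1-depleted replicates 1 and 2.

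**Figure D2:**
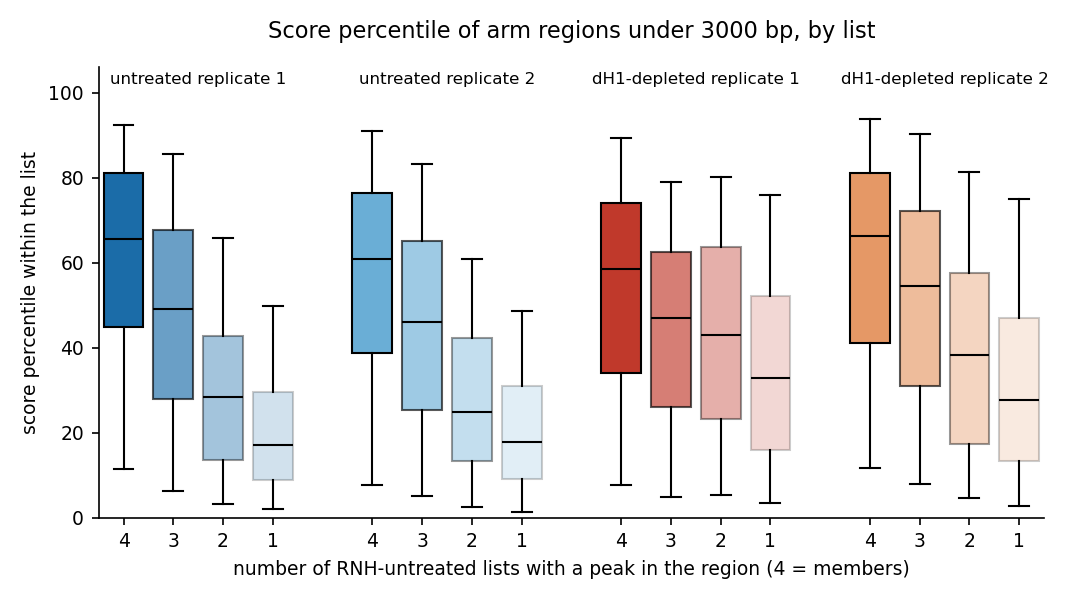
Score percentile within each RNH-untreated list (vertical axis) of arm regions under 3000 bp, by the number of lists with a peak (horizontal axis, 4 = members). Boxes span the quartiles with the median as a line, whiskers the 5th to 95th percentile of the regions. In untreated replicate 1 the median is 65.7 for members and 49.1 for regions called in 3 lists.

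The call was constant by the rule that chose the members, whereas their rank varied between the lists. Across the 521 members the percentiles of the 2 untreated replicates correlated with r = 0.68 (Spearman 0.75). Those of untreated replicates 1 and 2 correlated with dH1-depleted replicate 2 with r = 0.40 in both cases. Those of dH1-depleted replicate 1 correlated with r = 0.14, 0.15 and 0.15 with untreated replicates 1 and 2 and dH1-depleted replicate 2. These are descriptions over regions, which share libraries and width and are not independent. In the 609 regions without a peak of dH1-depleted replicate 1, the corresponding values were 0.61 between the untreated replicates and 0.43 for each of them with dH1-depleted replicate 2.

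The members that ranked highest in all lists, by their lowest percentile, were led by chr2L:626086-628422. Its scores were 1951 and 1879 in the untreated replicates and 449 and 1937 in dH1-depleted replicates 1 and 2, so all 4 percentiles were at least 94.2. The second was chrX:2689659-2691602, with 867, 728, 394 and 1660 in the same order and a lowest percentile of 93.3. Both are among the members with RNH-treated peaks described below.

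The next were chr3R:6954363-6955969 with scores of 357, 422, 286 and 381, chr3L:24381087-24383067 with 254, 327, 369 and 546, chrX:14718479-14720307 with 337, 247, 273 and 363, and chrX:5494712-5497514 with 349, 341, 425 and 264. None of these 4 had a peak in an RNH-treated list. The highest on 2R was chr2R:6490748-6492291, with scores of 273, 303, 201 and 400 and a lowest percentile of 84.7. In these 5 regions the 4 libraries stayed within percentiles of 84.7 to 95.5.

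The RNH-treated lists asked whether S9.6 peaks were still called in the members after digestion of hybrids. In untreated replicate 1, 14 of 521 members (2.69%, Wilson 95% interval 1.61 to 4.46) had a peak in the RNH-treated list, in front of 35 of 6833 other arm regions under 3000 bp (0.512%), the background over all 7354 regions being 0.666%. In untreated replicate 2 it was 13 members (2.50%) in front of 0.439% of the others, with a background of 0.585%. In dH1-depleted replicate 1 it was 10 members (1.92%) in front of 0.454%, with a background of 0.558%. In dH1-depleted replicate 2 it was 18 members (3.45%) in front of 1.60%, with a background of 1.73%. The share of members was above that of the other regions under 3000 bp in all 4 libraries, and 93.7% of members had no peak in any RNH-treated list. The 181 wider regions called in all 4 lists lay higher still, at 20.4% and 13.3% in untreated replicates 1 and 2 and at 8.84% and 14.4% in the dH1-depleted ones.

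On the scale of log2 odds, with 0.5 added to each count, members exceeded the other regions by 2.45 and 2.57 in untreated replicates 1 and 2 and by 2.15 and 1.17 in dH1-depleted replicates 1 and 2 (mean 2.09 ± 0.63, SD, n = 4). An exact 2-sided sign-flip test over the 4 libraries gave *p* = 0.13, the smallest value that 4 libraries allow (0.25 after Benjamini-Hochberg adjustment over the 2 tests made). The design cannot reach 0.05. The other regions were mostly called in 1 list only, 4792 of 6833. Against the 931 regions called in exactly 3 lists the difference was 2.21 ± 1.32 (SD, n = 4). It was 4.15 and 1.92 in untreated replicates 1 and 2 and 1.55 and 1.22 in dH1-depleted replicates 1 and 2. In untreated replicate 1 only 1 of the 931 had an RNH-treated peak, so the value there rests on 1 region.

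Width moved with this result. Of the 130 narrowest members, of 923 to 1275 bp, 3 had a peak in at least 1 RNH-treated list (2.31%), and of the 131 widest, of 2099 to 2980 bp, 17 had one (13.0%). The other regions were narrower, with a median of 969 bp. Against the 3561 other regions at least as wide as the narrowest member the difference was 2.08 ± 0.96 (SD, n = 4), from 0.69 in dH1-depleted replicate 2 to 2.81 in untreated replicate 1. Per Mb of region, 15.4 members and 6.04 other regions had an RNH-treated peak in untreated replicate 1, 14.3 and 5.18 in untreated replicate 2, and 11.0 and 5.35 in dH1-depleted replicate 1. In dH1-depleted replicate 2 the values were nearly equal, at 19.8 and 18.8. The part of width in the result was not tested further.

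**Figure D3:**
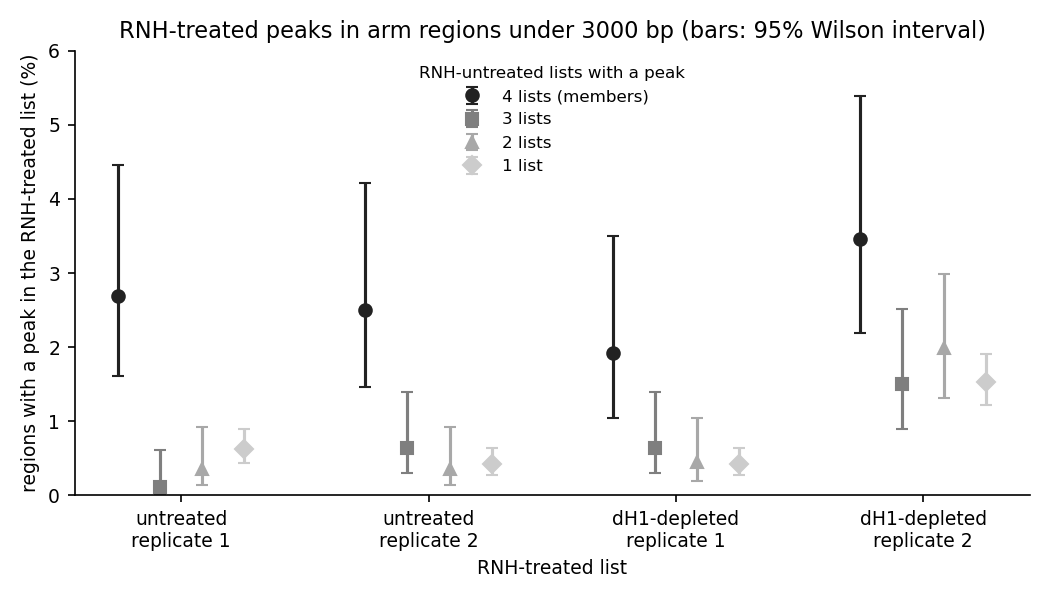
Share of arm regions under 3000 bp with a peak in each RNH-treated list (vertical axis, percent), by the number of RNH-untreated lists that called the region (symbols). Bars are Wilson 95% intervals, which cover counting error only. Members (circles) lie between 1.92% and 3.45% and are the highest symbol in each list.

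Between the conditions the share of members with an RNH-treated peak did not separate. It was 2.59% ± 0.14 (SD, n = 2) in untreated cells and 2.69% ± 1.09 (SD, n = 2) in dH1-depleted cells. The difference in log2 odds was −0.0041 (exact permutation test, 2-sided, *p* = 1, where 2 against 2 libraries cannot go below 0.333). The dH1-depleted replicates lay on either side of the untreated ones, and a *p* of this design does not show that the conditions were alike.

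In all, 33 members (6.33%) had a peak in at least 1 RNH-treated list, where 2.72% of all arm regions under 3000 bp and 34.3% of the wider regions called in all 4 lists did. Of these 33, 14 (2.69% of members) had one in at least 2 lists, where 0.612% of all did. In 7 of the 33 the peaks came from untreated cells only, in 16 from dH1-depleted cells only and in 10 from both. Of the 16, 11 were called only in dH1-depleted replicate 2. That list also held the most arm peaks after RNH, 375. Untreated replicates 1 and 2 and dH1-depleted replicate 1 held 98, 74 and 61. Of all 7354 arm regions under 3000 bp, dH1-depleted replicate 2 had a peak in 127, and the other lists in 49, 43 and 41 in the same order. The split by condition was not made over all these regions, so the 7 and the 16 have no background beside them. The 33 were wider than the other 488 members, with median widths of 2306 and 1646 bp. They also ranked higher before RNH, with median percentiles of 73.5, 73.2, 67.1 and 80.8 in front of 65.0, 60.4, 58.1 and 65.2 in untreated replicates 1 and 2 and dH1-depleted replicates 1 and 2.

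Only 2 members had a peak in all 4 RNH-treated lists. At chrX:2689659-2691602 the scores after RNH were 3100 in both untreated replicates and 3100 and 3191 in dH1-depleted replicates 1 and 2, all above the scores before RNH. At chr3R:10488373-10490998 they were 3100 in both untreated replicates and 519 and 3100 in dH1-depleted replicates 1 and 2, whereas before RNH they had been 1345, 1062, 54.0 and 3100. The score of 3100 recurs in every list and was taken as given, so values there have no order. Both regions therefore had peaks after RNH in all 4 libraries, and at the second the peak of dH1-depleted replicate 1 scored near the lowest that is called before RNH and higher after it.

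The next members by this rule had peaks in 3 lists. At chrX:21834373-21835511 the RNH-treated scores were 352 and 260 in the untreated replicates and 121 in dH1-depleted replicate 2. At chrX:2509652-2511283 they were 159 and 113 in the untreated replicates and 113 in dH1-depleted replicate 1. At chr2L:6996659-6998335 they were 128 and 122 in the untreated replicates and 62.0 in dH1-depleted replicate 1. In these 3 regions the peak of dH1-depleted replicate 1 before RNH had the highest score, of 797, 1070 and 960, in front of 61.1 to 341 in the other 3 RNH-untreated lists. The fourth member with peaks in 3 RNH-treated lists, chr2R:3665881-3668395, falls outside the rule for named regions and was added after its values were seen. Its scores before RNH were 80.9 and 101 in the untreated replicates and 81.5 and 303 in dH1-depleted replicates 1 and 2, so there the highest was in dH1-depleted replicate 2. At chr2L:626086-628422 peaks of 1364 and 1295 stayed in the untreated replicates and none was called in the dH1-depleted ones.

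The score before RNH was also set against the RNH-treated calls list by list. In the RNH-untreated list of dH1-depleted replicate 1 the 5 highest-scoring members, from 797 to 1070, all had peaks in at least 2 RNH-treated lists. At chr3R:4399231-4400578 and chrX:12829837-12831473, which are among the 5, these were in libraries of untreated cells only. Of the first 10, 8 had peaks in at least 2 RNH-treated lists, where 2.69% of all members and 0.612% of all arm regions under 3000 bp did. Of the first 10 members by score in untreated replicates 1 and 2 and dH1-depleted replicate 2, 4, 4 and 5 had such peaks. This count was made after the values were seen and has no test.

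In most members called both before and after RNH in a replicate the score was lower after RNH. This was so in 9 of 14 members in untreated replicate 1, in 10 of 13 in untreated replicate 2, and, of the dH1-depleted libraries, in 7 of 10 in replicate 1 and 13 of 18 in replicate 2. The median scores went from 300 to 132, from 253 to 104, from 116 to 75 and from 262 to 93.8 in the same order. Scores of libraries of unknown depth carry no common scale, so these are given as values only.

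The 4 RNH-untreated lists were next used to order the conditions within the members. In 103 members (19.8%) the percentile was higher in both dH1-depleted lists than in both untreated lists, and in 108 (20.7%) it was higher in both untreated lists. Over all 1562 regions called in all 4 lists, which include the 860 off the arms, the corresponding backgrounds were 22.9% and 11.2%. The calls of these lists chose the members, so nothing is read from the counts beyond the description. In the 181 wider arm regions the shares were 24.3% and 20.4%. In the regions off the arms they were 24.5% and 3.49%. Without dH1-depleted replicate 1, of the 1130 regions called in the other 3 lists, 468 (41.4%) ranked higher in dH1-depleted replicate 2 than in both untreated lists and 391 (34.6%) ranked lower than in both. An order is met more easily with 3 lists by construction, so these counts are not on the scale of those with 4. The order was not counted over all regions called in these 3 lists, so they have no background beside them.

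In the members the replicates went opposite ways. From untreated to dH1-depleted cells the percentile of the members changed by a median of −7.48 points in replicate 1 and of 2.80 points in replicate 2. It was higher in dH1-depleted cells in 220 members (42.2%) in replicate 1 and in 293 (56.2%) in replicate 2. The 2 replicates both gave a higher percentile in 136 members and both a lower one in 144. Over all 1562 regions called in all 4 lists the median changes were 2.84 and 0.47 points in replicates 1 and 2. The percentile was higher in dH1-depleted cells in 61.6% and 51.6% of them. Both replicates gave a higher one in 451 of the 1562 and both a lower one in 245. In the 181 wider arm regions the median changes were −7.14 and 4.49 points, so the opposite signs were not particular to the members. With equal numbers of peaks taken from each list only 215 regions remained as members. Of these, 13 ranked higher in both dH1-depleted lists and 77 in both untreated lists, with no background counted. Among all 521 members the counts were 108 and 109 with percentiles taken among the members. They were 98 and 119 with the lowest score where a list had several peaks. The balance of the directions thus differed between settings, and with equal numbers of peaks the set of members changed as well.

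**Figure D4:**
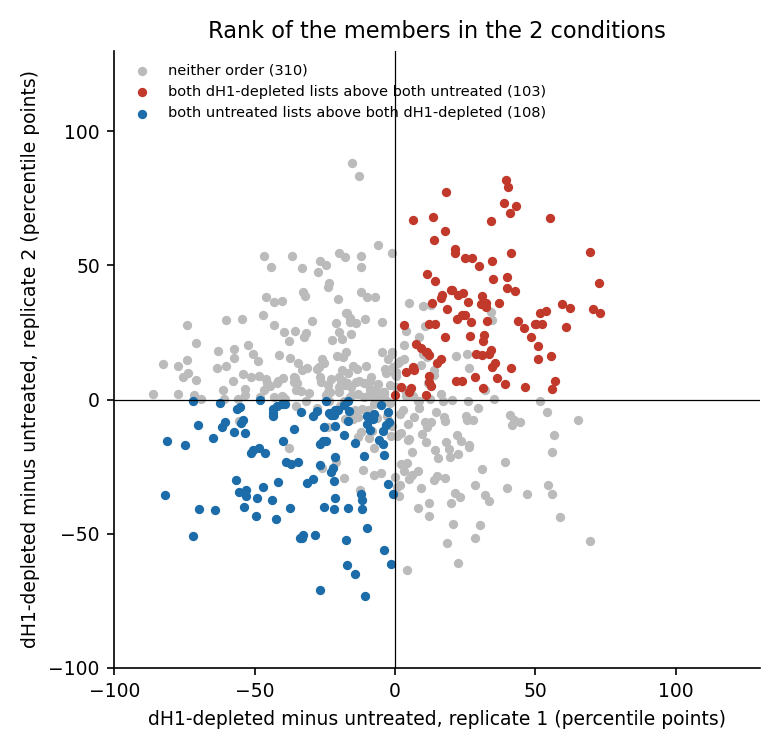
Difference in score percentile between dH1-depleted and untreated cells for each of the 521 members, in replicate 1 (horizontal axis, percentile points) and replicate 2 (vertical axis). Red points (103) ranked higher in both dH1-depleted lists than in both untreated lists, blue points (108) the other way, and grey points (310) in neither order.

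The 3 largest gaps upon dH1 depletion, from the higher untreated to the lower dH1-depleted percentile, were on X. They were 54.2, 43.5 and 43.0 points. Members on 3L and 2R came close, with 41.2 points each. X held 16.5% of the 103 members that ranked higher in dH1-depleted cells and 17.3% of all members. At chrX:10163588-10164726 the percentiles were 11.6 and 10.9 in the untreated replicates and 81.1 and 65.8 in dH1-depleted replicates 1 and 2, with scores of 56.9, 55.7, 167 and 145. At chrX:3389356-3390534 they were 4.42 and 16.8 in front of 77.0 and 60.3. At chrX:17888565-17889810 they were 13.1 and 7.74 in front of 56.2 and 79.9. In all 3 regions the untreated scores were close to the lowest that is called, from 52.8 to 59.4.

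In the other direction, chrX:3053710-3055098 had percentiles of 82.5 and 88.1 in the untreated replicates and of 10.6 and 37.4 in dH1-depleted replicates 1 and 2, with scores of 207, 271, 53.3 and 84.3. At chr2L:16688704-16690951 the percentiles were 85.3 and 83.7 in front of 35.7 and 40.1, and no base was covered by all 4 lists. At chr2L:21827563-21829467 they were 71.3 and 67.2 in front of 1.4 and 26.6. In these regions the dH1-depleted scores were the low ones, from 50.4 to 87.8.

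The 103 members that ranked higher in dH1-depleted cells had a median width of 1296 bp. The 108 that ranked higher in untreated cells were wider, with 1771 bp. The order came from the same percentiles, which moved with width, so this difference is no separate result. For untreated replicates 1 and 2 median percentiles were 45.7 and 38.8 in the 130 narrowest members and 72.3 and 71.1 in the 131 widest. For dH1-depleted replicates 1 and 2 they were 62.7 and 51.7 in the narrowest and 55.0 and 75.3 in the widest. Of the 103, 6 (5.83%) had a peak in an RNH-treated list, and of the 108 only 1 region (0.926%). Among the 310 members in neither order it was 26 (8.39%). The share was 6.33% over all members and 2.72% over all arm regions under 3000 bp, so that of the 103 was near that of all members. X held 16.5% and 14.8% of the ordered members and 18.4% of the rest.

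The members were spread over the arms, with 115 on 2L, 98 on 2R, 116 on 3L, 102 on 3R and 90 on X. X held 17.3% of them (Wilson 95% interval 14.3 to 20.8), in front of 11.5% of the other arm regions under 3000 bp (10.7 to 12.2). On X, 10.3% of the arm regions under 3000 bp were members, in front of 6.65% on the autosomes. Per Mb of arm up to the last peak, X had 4.02 members and the autosomes 4.46, a ratio of 0.900, whereas the other regions had 35.0 and 62.6, a ratio of 0.558. The 181 wider regions called in all 4 lists were like the members in this, with 17.1% on X and a ratio of 0.891, so the density on X was not particular to the members. 3R held 19.6% of the members and 24.0% of the others.

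Among regions called in at least 3 lists, the share on X was lowest in those without a peak of dH1-depleted replicate 1. The 609 regions that lacked only that list had 8.70% on X (6.72 to 11.2), and the 167 that lacked only dH1-depleted replicate 2 had 17.4% (12.4 to 23.8). The 91 and 64 regions that lacked only untreated replicate 2 or untreated replicate 1 had 16.5% and 14.1%. In regions called in 1 or 2 lists this order did not hold throughout. Those called only there had 10.9% on X, in front of 13.3% of those called only in dH1-depleted replicate 2, and those it shared only with untreated replicate 1 had 11.5%, in front of 12.1% of those called only in the untreated replicates. Without dH1-depleted replicate 1 the share of regions called in the other 3 lists fell to 12.7%, and without any other RNH-untreated list it was between 16.7% and 17.5%. Over all arm peaks the share on X differed little between the lists, from 12.9% to 13.7%. The part of this library in the share on X was not tested beyond these values.

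**Figure D5:**
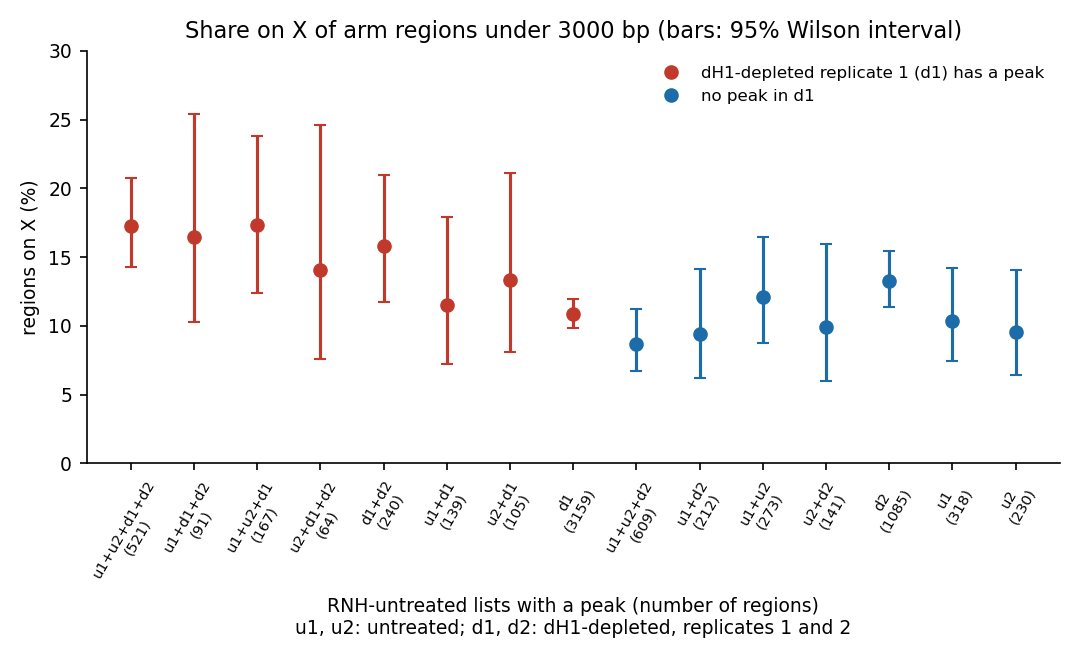
Share of arm regions under 3000 bp that lie on X (vertical axis, percent) for each combination of RNH-untreated lists with a peak (horizontal axis, number of regions in brackets). Bars are Wilson 95% intervals. The members, at the left, have 17.3% on X and the regions that lack only dH1-depleted replicate 1 have 8.70%.

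Positions along the arms were set against those of the other regions, with no test. When the span of each arm up to its last peak was cut into 10 equal bins, 33 members (6.33%, 4.55 to 8.76) lay in the bin next to the centromere, in front of 11.0% of the other regions (10.3 to 11.7). Regions called in 3 lists had 6.66% there, those called in 1 list had 12.4% and the wider regions called in all 4 lists had 19.9%. The bin next to the telomere held 57 members (10.9%), close to the 10.5% of the others.

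Neighbouring members on an arm were a median of 77532 bp apart, from 10 bp to 2556672 bp, and the median distance to the nearest member was 38784 bp. Another member lay within 10 kb of 137 members (26.3%), and these formed 57 runs, of which 15 had 3 or more members. The longest runs had 5 members each, at chr3L:5245194-5275449 and chrX:3389356-3417845. The second begins with a region named above for its higher rank upon dH1 depletion. The longest stretch of an arm between neighbouring members was chrX:7606916-10163587.

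The closest pair of members was 10 bp apart on 3R. The first, chr3R:5171020-5172528, had scores of 327, 281, 54.4 and 345 in untreated replicates 1 and 2 and dH1-depleted replicates 1 and 2. The second, chr3R:5172539-5174678, had 154, 210, 156 and 112. The order of the 2 regions thus differed between dH1-depleted replicate 1 and the other libraries. The next pair was 27 bp apart, at chr3L:5176722-5178609, with 194, 226, 86.3 and 256, and chr3L:5178637-5181523, with 398, 335, 120 and 221. Such pairs are apart only by the rule that peaks must share a base.

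The members also lay closer to the 181 wider regions than the other regions did. The median distance was 191614 bp, in front of 241047 bp for regions called in 3 lists, 226288 bp for those called in 2 lists and 305915 bp for those called in 1 list. Within 10 kb of a wider region lay 56 members (10.7%), in front of 7.09%, 5.50% and 3.36% of the regions called in 3, 2 and 1 lists.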

How the data were processed

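DRIP-seq with S9.6 was analysed in untreated and dH1-depleted S2 cells from 12 libraries, of which the 8 S9.6 libraries have peak lists. Per the labels and methods, the authors aligned reads with Bowtie 0.12.5 to dm3 keeping all alignment sites of a read, removed duplicates, and called peaks with MACS 1.4 for each S9.6 library against its input at a *p*-value of 1e-05, without pooling. The authors deposited for each peak a score, 10 times the negative log10 of its *p*-value. Peaks on copies of a repeat can share reads. Depth is not given, so scores were only ranked within a list, and Wilson 95% intervals cover counting error only. The filter on loss of signal upon RNH that the study applied afterwards needs read counts and was not applied.

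Regions were built, counted and tested with Python 3.11.15, NumPy 2.4.6, SciPy 1.17.1 and matplotlib 3.10.9. A region was called in a list if they shared at least 1 bp. Calls of RNH-treated lists were compared by an exact sign-flip test over libraries and an exact permutation test between conditions. Their *p*-values come from flipping the signs or exchanging the conditions of these libraries and do not measure the spread between them. The code was tested on simulated data. The regions named were the 6 members of highest lowest percentile and the first of each arm, the 3 with the largest gap between conditions in each direction, the 5 with RNH-treated peaks in most lists, the 2 on each side of the 3000 bp limit, the 3 longest and 3 shortest common stretches, and the 2 closest pairs. Runs of members, the longest gap between members and the members of highest score in each list were added after their values were seen. The members, rules and alternatives were chosen with earlier results of these data known. No genome or annotation of dm3 was used, and γH2Av ChIP-seq was not analysed here.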

Additional observations from a re-analysis of the deposited data

How the results depend on the processing

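The higher log2 odds of an RNH-treated peak in members than in other arm regions kept its direction in every alternative run. It was 1.39 to 2.39 when each library was left out in turn, the lowest without the RNH-untreated list of dH1-depleted replicate 1, and 2.08 against other regions at least as wide as the narrowest member, an alternative chosen after seeing the data. With 4 libraries no setting could pass 0.05. The difference between the conditions, −0.0041 in the main setting, was −1.06 with scores of 100 and above, −0.74 with equal numbers of peaks and −0.38 with no width limit. It turned sign with narrow peaks widened (0.035) and with RNH-treated peaks within 500 bp (0.14), and ran from −0.42 to 0.42 over the left-out libraries, the extremes coming without either RNH-treated dH1-depleted library. With the replicate block it was −0.0041, the mean of −0.48 in replicate 1 and 0.47 in replicate 2 (exact sign-flip *p* = 1). The labels give the same replicate numbers to both conditions but no shared origin, so the pairing is one of number only. With scores of 100 and above in every list, 108 members were left, of which 17 and 23 ranked higher in dH1-depleted and untreated cells, and 23.1% lay on X. With equal numbers of peaks 215 were left, with 13 ranked higher in dH1-depleted cells. Leaving out each RNH-untreated list gave 599 to 1130 members and 12.7% to 17.5% on X, the 1130 and the 12.7% without dH1-depleted replicate 1. It gave 195 to 468 members ranked higher in dH1-depleted cells and 166 to 391 in untreated cells. In these settings the order was counted in members only, so the counts have no background beside them. Exactly 3-list comparison regions do not enter the difference between the conditions, so that alternative gave it no value. Of the 72 values recomputed, 8 turned sign, all of them the difference between the conditions, and 16 moved, which means a count by over 1.5 times or a share on X outside the Wilson interval of the main value. The other 48 did neither. Depth is unknown, so a member without an RNH-treated peak shows only that none was called.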
